A study of Homo sapiens with 3 samples.

Results

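The cytosolic heat shock chaperones described here are 10 genes of the 58735 in the count tables: HSPA1A, HSPA1B, HSPA8, HSPH1, DNAJB1, HSP90AA1, HSP90AB1, HSPB1 and BAG3, with HSF1, the transcription factor that drives the heat shock response. They were matched by gene symbol and were chosen from earlier results of these same libraries, in which several of them were higher after DDX24 knockdown, so that their ratios to the control are a description and carry no test. All 10 had a mean of at least 1 CPM (counts scaled to a library of fixed size), the limit that 13984 genes passed. HSPA1A and HSPA1B are near copies of each other and were also taken as a sum.

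The 3 libraries came from A549, an established human lung adenocarcinoma line grown in F12K medium with serum. One was a control (Control) and the others each carried 1 of 2 shRNAs against DDX24, a DEAD-box RNA helicase (DDX24-sh1 and DDX24-sh2). All were stable lines, transduced with lentivirus from pLKO.1 plasmids and selected with puromycin, and the control is an empty vector in the study's methods and a control shRNA in a legend, so which of them the library holds is not known. The comparison asks how the RNA of these chaperones differed after DDX24 was depleted. Each condition has 1 library, with no replicate error, and the effect of depletion and the state of the single control culture cannot be told apart.

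HSP70 proteins bind exposed hydrophobic stretches of unfolded clients in a cycle driven by ATP. J-domain proteins such as DNAJB1 hand them clients and speed ATP hydrolysis, nucleotide exchange factors such as HSPH1 and BAG3 reset the cycle, HSP90 takes over clients that are partly folded, and small heat shock proteins such as HSPB1 hold unfolded proteins without ATP. When unfolded protein accumulates, HSF1 is freed from these chaperones, forms trimers and binds heat shock elements, which are arrays of inverted GAA units in the promoters of their genes.

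The letters of that element were searched in RefSeq windows of 250 bases before to 50 bases after each start site (GRCh38.p14). The search asked for GAA and TTC units in alternation with 2 bases between neighbours, starting from either unit, which covers both strands. The table of windows held 9 of the 10 genes in 14 windows, and HSF1 had no entry. The stretches around the matches are shown because they are a feature that several members share apart from their values. The sequence is in lower case, 5′ to 3′ on the strand of the gene, with the units in capitals. The 3-unit matches were these.
HSPA8, first match: gcgagcttGAAagTTCcaGAAcgctgcgg
HSPA8, second match: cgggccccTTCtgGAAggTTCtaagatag
HSP90AA1: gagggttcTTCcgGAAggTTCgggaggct
HSP90AB1, first match: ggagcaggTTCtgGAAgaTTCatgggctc
HSP90AB1, second match: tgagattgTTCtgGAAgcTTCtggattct

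The HSPA8 stretches lie at chr11:123062346-123062374 and chr11:123062171-123062199 on the minus strand, with the units beginning 230 and 55 bases before the RefSeq start, and GENCODE 29 places both in an exon of a gene model that begins further upstream. The HSP90AA1 stretch lies at chr14:102087112-102087140 on the minus strand, 88 bases before the second of the gene's start sites and also in a GENCODE 29 exon. The HSP90AB1 stretches lie at chr6:44247770-44247798 and chr6:44247823-44247851 on the plus strand, 165 and 112 bases before the third start site, in an intron. Of all 35116 windows, 172 (0.490%) held a 3-unit match, against 3 of the 14 windows of the members.

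Shorter matches with 2 units also lie inside every 3-unit match. They were found in 8 of the 14 windows of the members, against 13.5% of all windows. By gene they were found in 7 of the 9 members searched, against 16.2% of all genes with a window. The inducible HSP70 pair had 1 each at nearly the same distance from the start, and HSPB1 and DNAJB1 are shown for comparison.
HSPA1A: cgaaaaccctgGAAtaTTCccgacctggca
HSPA1B: cgaaacccctgGAAtaTTCccgacctggca
HSPB1: ccttaacgagaGAAggTTCcagatgagggc
DNAJB1, first match: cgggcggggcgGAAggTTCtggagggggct
DNAJB1, second match: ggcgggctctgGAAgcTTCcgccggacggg

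The HSPA1A and HSPA1B stretches lie upstream of the genes at chr6:31815426-31815455 and chr6:31827622-31827651 on the plus strand, with the units beginning 106 and 105 bases before the start. The HSPB1 stretch is upstream of its gene at chr7:76302480-76302509 on the plus strand, and those of DNAJB1 are in an intron, before its second start site, at chr19:14518456-14518485 and chr19:14518426-14518455 on the minus strand. HSP90AA1 and the third start site of DNAJB1 had a further 2-unit match each. HSPH1 and BAG3 had no match, which says only that these letters are not in their windows. A match is a description of letters and not a measured HSF1 site. Only exact units were counted, and in HSPA1A and HSPA1B the letters gac, in place of GAA, stand 2 bases after the match. The shorter match there therefore does not mean a lesser element.

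The counts summed to 17218884 in Control, 18337471 in DDX24-sh1 and 17847190 in DDX24-sh2. DDX24 itself had 2010, 637 and 765 counts, which is 29.6% and 36.0% of its control CPM in DDX24-sh1 and DDX24-sh2. The line's deleted gene CDKN2A had 0 counts in each library, the summed CPM of 10 A549 marker genes ranged from 18443 to 19098 with EPCAM low at 1.59 to 1.87 CPM, KRT19 at 58.6, 123 and 151 CPM and CDH1 at 31.5, 19.6 and 14.5 CPM, and the summed CPM of 4 immune markers ranged from 0.656 to 0.997 with PTPRC and CD3E at 0. Those of 3 endothelial, 4 fibroblast and 3 erythroid markers ranged from 0.499 to 0.765, from 9.78 to 13.9 and from 0 to 0.0547. Mitochondrial genes took 4.36%, 5.13% and 7.04% of counts in the same order, the order of the HSP70 values given next, and the part of that share in them was not tested. The FPKM that the authors deposited correspond to these counts only if the labels of the 2 shRNA libraries are exchanged, so any difference between DDX24-sh1 and DDX24-sh2 below may belong to the other shRNA, whereas a value found in both does not depend on it. In bulk RNA, fewer cells of a kind and less RNA per cell cannot be told apart.

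The HSP70 genes HSPA1A, HSPA1B and HSPA8 were 2.70- to 4.71-fold higher than Control in both shRNA libraries, the co-chaperones DNAJB1, HSPH1 and BAG3 and the HSP90 genes were higher by smaller factors, and HSF1 was slightly lower. Ratios are log2 ratios of CPM scaled by trimmed mean of M values (TMM). Their exact 95% intervals cover counting error only, since each condition has 1 library. Reads that carry no molecular identifier cannot be counted as separate molecules, so the intervals may be too narrow even for counting error. Both ratios of a gene share the Control library.

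HSPA1A and HSPA1B encode the stress-inducible HSP70 protein and lie side by side in the major histocompatibility complex, at chr6:31815464-31817946 and chr6:31827735-31830255 on the plus strand. HSPA1A had 375 counts in Control, 1564 in DDX24-sh1 and 1868 in DDX24-sh2, or 22.0, 85.5 and 103 CPM. HSPA1B had 189, 654 and 858 counts, or 11.1, 35.8 and 47.5 CPM. Both genes were lowest in Control and highest in DDX24-sh2. The log2 ratio of HSPA1A was 1.95 (95% interval 1.80 to 2.13) in DDX24-sh1 and 2.23 (2.08 to 2.40) in DDX24-sh2. Its CPM was 3.89- and 4.71-fold that of Control. The log2 ratio of HSPA1B was 1.68 (1.46 to 1.93) and 2.09 (1.87 to 2.34), and its CPM was 3.23- and 4.29-fold that of Control. Among the 13984 genes, HSPA1A ranked 21 and 19 from the top by this ratio, and HSPA1B 45 and 25.

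Reads of the pair cannot be fully assigned to either gene. Their longest coding transcripts were identical at 95.9% of 2304 aligned positions and their promoter windows at 92.0% of 301, whereas HSPA1A and HSPA8 were identical at 73.8% of 1944. The sum does not depend on how the counted reads were divided between the copies. It does depend on whether reads that fit both copies were kept, which is not known because the counter is not given. The sum was 564, 2218 and 2726 counts, or 33.0, 121 and 151 CPM. It was 3.67-fold higher in DDX24-sh1, a log2 ratio of 1.87 (1.74 to 2.01), and 4.57-fold higher in DDX24-sh2, a log2 ratio of 2.19 (2.06 to 2.33). The intervals of the split between the copies overlapped, with HSPA1A holding 66.5% (exact binomial interval 62.4 to 70.4) of the pair's counts in Control, 70.5% (68.6 to 72.4) in DDX24-sh1 and 68.5% (66.7 to 70.3) in DDX24-sh2. The 2 shRNA libraries differed in the sum by a log2 ratio of 0.32 (0.24 to 0.40), higher in DDX24-sh2.

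HSPA8 (HSC70) is the constitutive HSP70, which folds new proteins, uncoats clathrin vesicles and delivers clients to lysosomes, and its gene lies at chr11:123057489-123063230 on the minus strand. It had 10577 counts in Control, 30583 in DDX24-sh1 and 35743 in DDX24-sh2, or 620, 1672 and 1980 CPM. The housekeeping member of the family was therefore also well apart from Control, by a log2 ratio of 1.43 (1.40 to 1.46) in DDX24-sh1 and 1.68 (1.64 to 1.71) in DDX24-sh2, or 2.70- and 3.20-fold. By the ratio HSPA8 ranked 95 and 79, below the inducible pair, but by the CPM gained it ranked 7 of all genes in each comparison, with gains of 1052 and 1360 CPM. Its place among all genes by CPM went from 181 in Control to 46 and 37. Of the summed CPM gain of the 10 members, HSPA8 made up 59.6% in DDX24-sh1 and 46.2% in DDX24-sh2, against 3.60% and 2.77% for HSPA1A.

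**Figure D1:**
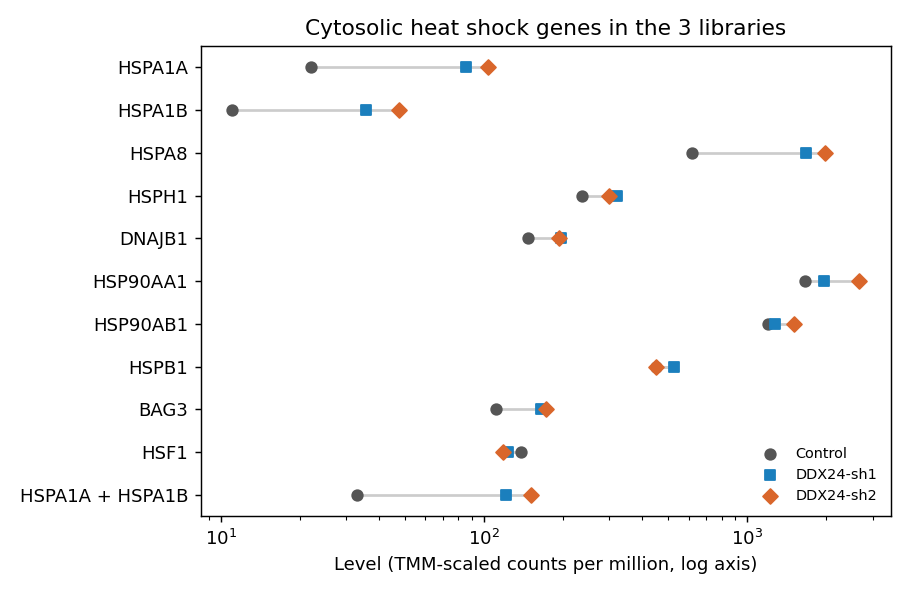
Level of each member in the 3 libraries, in TMM-scaled CPM on a log axis, with 1 point per library. HSPA1A, HSPA1B and HSPA8 stand apart from their Control points (22.0, 11.1 and 620 CPM), whereas the points of HSPB1 and HSF1 lie close together and the Control point of HSPB1 is hidden under that of DDX24-sh2.

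DNAJB1 (HSP40) is a J-domain partner that HSP70 proteins use for disaggregation and for silencing HSF1. It had 2506 counts in Control, 3597 in DDX24-sh1 and 3471 in DDX24-sh2, or 147, 197 and 192 CPM. Its log2 ratio was 0.42 (0.35 to 0.50) in DDX24-sh1 and 0.39 (0.31 to 0.46) in DDX24-sh2. The shRNA libraries were close to each other, with an interval of -0.10 to 0.04 for their log2 ratio that holds 0. The gene lies at chr19:14514770-14529770 on the minus strand and shares 12686 bases with TECR on the opposite strand, and whether counting used the strand was not stated. TECR lay below Control, with log2 ratios of -0.21 and -0.42.

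HSPH1 (HSP105), an HSP110 protein that exchanges nucleotide on HSP70, had 4038 counts in Control, 5865 in DDX24-sh1 and 5408 in DDX24-sh2, or 237, 321 and 299.6 CPM. The log2 ratios were 0.44 (0.38 to 0.50) and 0.34 (0.28 to 0.40), and DDX24-sh2 lay below DDX24-sh1 by 0.10 (log2 ratio -0.10, interval -0.15 to -0.04), which is the reverse of the order seen for the HSP70 genes. BAG3, the exchange factor that routes clients of HSP70 and small heat shock proteins to selective autophagy, had 1898, 3026 and 3106 counts, or 111, 165 and 172 CPM. Its log2 ratios of 0.57 (0.49 to 0.66) and 0.63 (0.55 to 0.71) were the highest of the 3 co-chaperones in each comparison. HSPH1 lies at chr13:31134974-31162388 on the minus strand and BAG3 at chr10:119651370-119677819 on the plus strand.

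Per kilobase of gene length, the cytosolic HSP90 genes were the most abundant members in each library, whereas by CPM HSPA8 exceeded HSP90AB1 in both shRNA libraries. HSP90AA1, the inducible form at chr14:102080738-102139699 on the minus strand, had 28365 counts in Control, 35854 in DDX24-sh1 and 48115 in DDX24-sh2, or 1662, 1960 and 2666 CPM. The log2 ratio was 0.24 (0.22 to 0.26) in DDX24-sh1 and 0.68 (0.66 to 0.70) in DDX24-sh2, and the shRNA libraries lay 0.44 (0.42 to 0.46) apart, the highest estimate of any member, although that of HSPA1B, 0.41 (0.26 to 0.56), was not separable from it. HSP90AB1, the constitutive form at chr6:44246166-44253888 on the plus strand, had 20502, 23367 and 27317 counts, or 1201, 1278 and 1513 CPM. It was higher by 0.09 (0.06 to 0.12) and 0.33 (0.31 to 0.36) on the log2 scale, so the inducible form had the higher ratio in each library. Per kilobase of gene length, HSP90AA1 stood at 0.786 of HSP90AB1 in Control, at 0.871 in DDX24-sh1 and level with it in DDX24-sh2 (interval of the ratio 0.985 to 1.02). In DDX24-sh2, HSP90AA1 gained 1004 CPM and made up 34.1% of the members' summed gain, against 16.9% in DDX24-sh1.

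HSPB1 (HSP27), a small heat shock protein that also binds actin filaments, differed between the shRNA libraries. It had 7702 counts in Control, 9643 in DDX24-sh1 and 8150 in DDX24-sh2, or 451, 527 and 452 CPM. It was higher in DDX24-sh1 by a log2 ratio of 0.22 (0.18 to 0.27), while in DDX24-sh2 the interval of -0.04 to 0.05 held 0. Under TMM this was the only member whose interval held 0 in either comparison with Control. The call depended on the scaling, as the DDX24-sh2 interval lay above 0 with total counts without mitochondrial genes (0.03 to 0.12) and with upper quartile scaling (0.02 to 0.11). The gene lies at chr7:76302544-76304295 on the plus strand.

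HSF1 was the only member below Control in both shRNA libraries. The gene (chr8:144291591-144314722, plus strand) had 2355 counts in Control, 2258 in DDX24-sh1 and 2126 in DDX24-sh2, or 138, 123 and 118 CPM. The log2 ratios were -0.16 (-0.24 to -0.08) and -0.23 (-0.31 to -0.14), so its RNA was 0.895 and 0.854 of the control level. Under upper quartile scaling the DDX24-sh1 interval held 0 (-0.15 to 0.02), whereas that of DDX24-sh2 lay below 0 under all 5 scalings. HSF1 is activated at the level of the protein, by release from chaperones, trimer formation and phosphorylation, which counts of its RNA do not measure.

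**Figure D2:**
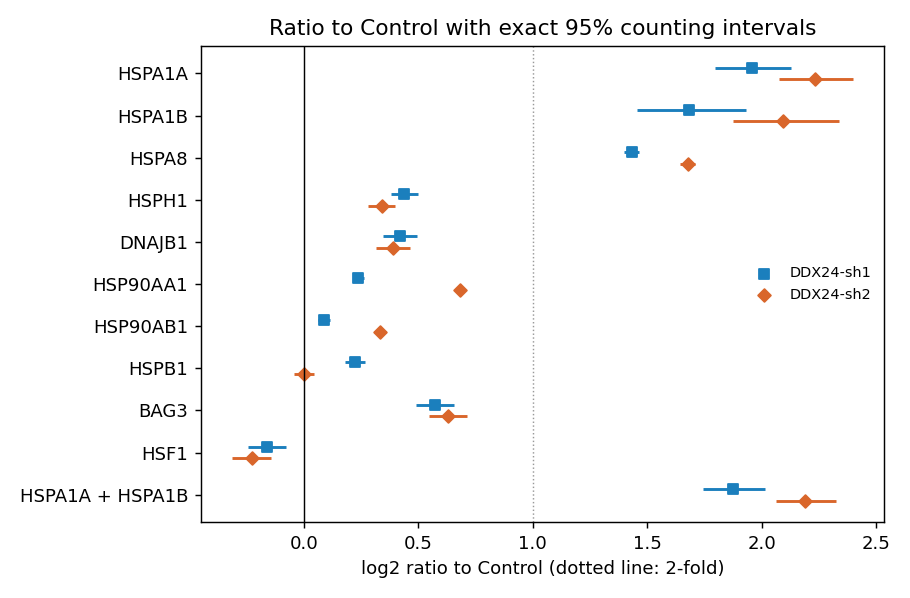
Log2 ratio of each member and of the HSPA1A and HSPA1B sum to Control (x axis) in DDX24-sh1 and DDX24-sh2, where bars are exact 95% counting intervals with no replicate error. The HSP70 genes lie beyond the dotted line of 2-fold, HSF1 lies below 0, and the DDX24-sh2 point of HSPB1 lies at 0.

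By a limit of 2-fold, 3 of the 10 members were higher in DDX24-sh1, where 2.32% of all genes tested were, and 3 in DDX24-sh2, where 2.89% were. They were HSPA1A, HSPA1B and HSPA8 in each comparison, and 1.19% of all genes were at least 2-fold higher in both. No member was 2-fold lower, where 2.27% and 3.07% of all genes were. At 1.5-fold, 3 and 5 members were higher (background 7.59% and 8.6%). The counting interval lay above 0 for 9 members in DDX24-sh1 (background 23.6%) and for 8 in DDX24-sh2 (background 23.6%), and below 0 for HSF1 in each (background 29.5% and 30.8%). As the members were chosen on these ratios, nothing is read from the difference to the background. Their median log2 ratio was 0.43 and 0.51, while that of all genes was -0.02 and -0.03 with quartiles of -0.26 and 0.21 in DDX24-sh1 and -0.27 and 0.21 in DDX24-sh2. Without HSPA1A and HSPA1B the members' medians were 0.33 and 0.36.

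**Figure D3:**
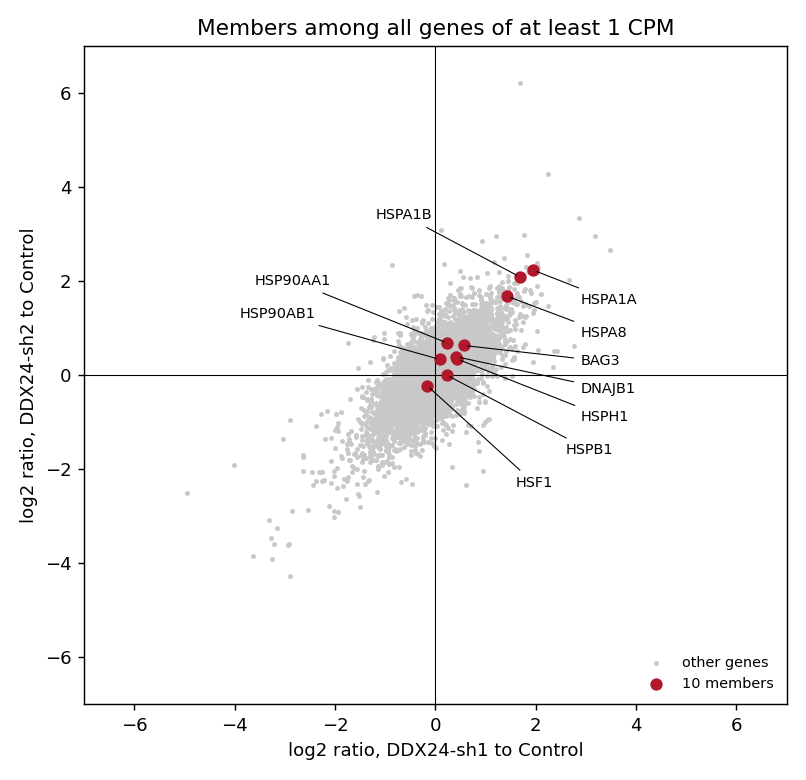
Log2 ratio to Control in DDX24-sh1 (x axis) against DDX24-sh2 (y axis) for all genes of at least 1 CPM, with the 10 members in red. Both axes share the Control library. HSPA1A, HSPA1B and HSPA8 lie at the upper right edge of the cloud, and the other members lie within it.

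The members together held 0.456% of all counts in Control (exact binomial interval 0.453 to 0.459), 0.635% (0.631 to 0.638) in DDX24-sh1 and 0.763% (0.759 to 0.767) in DDX24-sh2. Their summed CPM was 1.38- and 1.64-fold higher than in Control. Without the 3 HSP70 genes the sum was 1.16- and 1.37-fold higher. The HSP90 pair alone was 1.13- and 1.46-fold higher, compared with 3.67- and 4.57-fold for the inducible HSP70 pair.

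Levels were compared between genes as CPM per kilobase of gene length. In Control the order was HSP90AB1 (403), HSP90AA1 (317), HSPB1 (276), HSPA8 (128), BAG3 (40.5), DNAJB1 (40.0), HSPH1 (28.2), HSF1 (26.0), HSPA1A (8.85) and HSPA1B (4.39). Neighbours differed beyond counting error except BAG3 and DNAJB1, whose ratio was 1.01 (0.953 to 1.08). In DDX24-sh1, HSPA8 (345) had moved above HSPB1 (323), and HSPA1A (34.4) above HSF1 (23.3). In DDX24-sh2, HSPA1A (41.7) had also passed HSPH1 (35.7), and HSP90AA1 and HSP90AB1 stood level at 508 each. The levels of HSPA1A and HSPA1B would be too low if reads that fit both copies were dropped. As counted, HSPA1B remained the lowest member in every library, at 14.2 and 18.9 in the shRNA libraries. Even there the constitutive HSP70 exceeded the inducible pair, with HSPA8 at 9.65 times (8.87 to 10.5) the summed per-length level of HSPA1A and HSPA1B in Control, 7.09 times (6.79 to 7.41) in DDX24-sh1 and 6.75 times (6.49 to 7.02) in DDX24-sh2.

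The ratios of HSPA8 to its partners differed between libraries. Per length, HSPA8 stood at 3.20 times DNAJB1 in Control, 6.44 times in DDX24-sh1 and 7.80 times in DDX24-sh2. Relative to HSPH1 the same figures were 4.53, 9.02 and 11.4, and relative to BAG3 they were 3.16, 5.73 and 6.52. Relative to HSP90AB1, HSPA8 was at 0.317 in Control and at 0.804 in each shRNA library. None of the intervals of the shRNA libraries overlapped that of Control in these 4 ratios. A ratio within a library does not depend on how the libraries were scaled. All 4 share HSPA8, a member chosen with its ratio to Control known, so nothing is read from the lack of overlap. Among all genes, the counting interval of the ratio to Control lay above 0 for 23.6% in each comparison. It lay below 0 for 29.5% in DDX24-sh1 and 30.8% in DDX24-sh2.

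Other cytosolic chaperones gave a mixed picture. Of 6 other HSP70 and HSP110 genes, HSPA4 and HSPA4L, both HSP110 proteins, were the ones named by a rule of size and sign, with log2 ratios of 0.22 and 0.25 for HSPA4 and of 0.23 and 0.90 for HSPA4L. HSPA2, an HSP70 abundant in testis that was picked with its values known, had 2644, 5990 and 3084 counts, so that only DDX24-sh1 was 2-fold higher. HSPA6, a strictly inducible HSP70, had 4, 11 and 24 counts and did not pass the limit of 1 CPM. Among 15 other cytosolic J-domain genes, 14 passed, with medians of -0.11 and 0.11, and DNAJA1 (0.58 and 0.76) and DNAJB4 (0.65 and 0.98), both HSP70 partners, were highest. The 6 other BAG and exchange genes had medians of 0.04 and 0.02, with BAG2, which inhibits the ubiquitin ligase CHIP, at 0.14 and 0.45 and BAG6, which guards newly made membrane proteins, at -0.18 and -0.53.

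The co-chaperones that serve HSP90 and HSP70 lay nearer 0 than the members. Of 18, 17 passed, with medians of 0.05 and 0.12, none 2-fold higher in either library, and AHSA1, the activator of HSP90 ATPase, had log2 ratios of 0.33 and 0.46. TOMM34, which bridges HSP70 and HSP90, had 0.47 and 0.63. Among 8 other small heat shock protein genes, 3 passed, with medians of 0.91 and 0.35, against 0.22 and -0.08 over all 8. HSPB8, the partner of BAG3 in selective autophagy, had 502, 1011 and 675 counts and log2 ratios of 0.91 and 0.35. HSPB11 had 0.06 and 0.22, with intervals that held 0 in each library. The 8 chaperonin CCT subunits, which fold actin and tubulin, had medians of 0.02 and 0.22, and the 6 prefoldin subunits that deliver clients to CCT had -0.01 and 0.09. Of the named subunits, CCT2 had 0.12 and 0.28, CCT4 0.08 and 0.12, PFDN5 0.22 and 0.17, and PFDN2 -0.29 and -0.25.

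HSF1 has relatives and regulators, of which 4 of 5 passed, with medians of 0.13 and 0.22. HSBP1, which binds the HSF1 trimer, had log2 ratios of 0.24 and 0.30. The list of 18 other genes known to be heat inducible, some of which are on the lists above, had 17 that passed, of which 15 lay above 0 in DDX24-sh1 (47.4% of all genes did) and 16 in DDX24-sh2 (47.0%), with medians of 0.23 and 0.39. None of the 17 was 2-fold higher. DEDD2, a death effector protein, had 0.52 and 0.54. Of the 17, the highest in DDX24-sh1 was SLC5A3 at 0.96, an inositol transporter named here with its value known. In DDX24-sh2 it was HSPA4L at 0.90. Both were below the ratios of the 3 HSP70 genes among the members. HSPA6, the listed gene that did not pass, had higher log2 ratios of 1.04 and 2.06. They rest on few counts, at which the prior count lowers the ratio, with intervals of -0.40 to 3.47 and 0.96 to 4.49.

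The 14 listed endoplasmic reticulum chaperones lay below Control. The list was written with earlier results of these data known and does not cover the compartment. Of genes left off it, DNAJC10 had log2 ratios of 0.08 and 0.18, and PDIA5 0.51 and 0.18. ERP44, also left off, had -0.37 and -0.21, and a full count of such genes was not made. All 14 listed genes had intervals below 0 in each shRNA library, where 29.5% and 30.8% of all genes did, with medians of -0.88 and -0.82. HSPA5 (BiP), the HSP70 of that compartment, had 35214, 13956 and 13180 counts, and DNAJB9, its J-domain partner, had log2 ratios of -1.46 and -1.66. Per length, HSPA8 stood at 0.242 of HSPA5 in Control, at 1.77 times HSPA5 in DDX24-sh1 and at 2.19 times in DDX24-sh2, so the order of the 2 HSP70 genes turned over. HSP90AB1 was at 2.15 times HSP90B1, the endoplasmic reticulum HSP90, in Control and at 4.70 and 4.30 times in the shRNA libraries. The 8 mitochondrial genes that passed had medians of -0.11 and -0.01, from GRPEL2, an exchange factor, at -1.26 and -1.27 to HSPE1, the HSP10 lid of mitochondrial chaperonin, at 0.31 and 0.77.

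**Figure D4:**
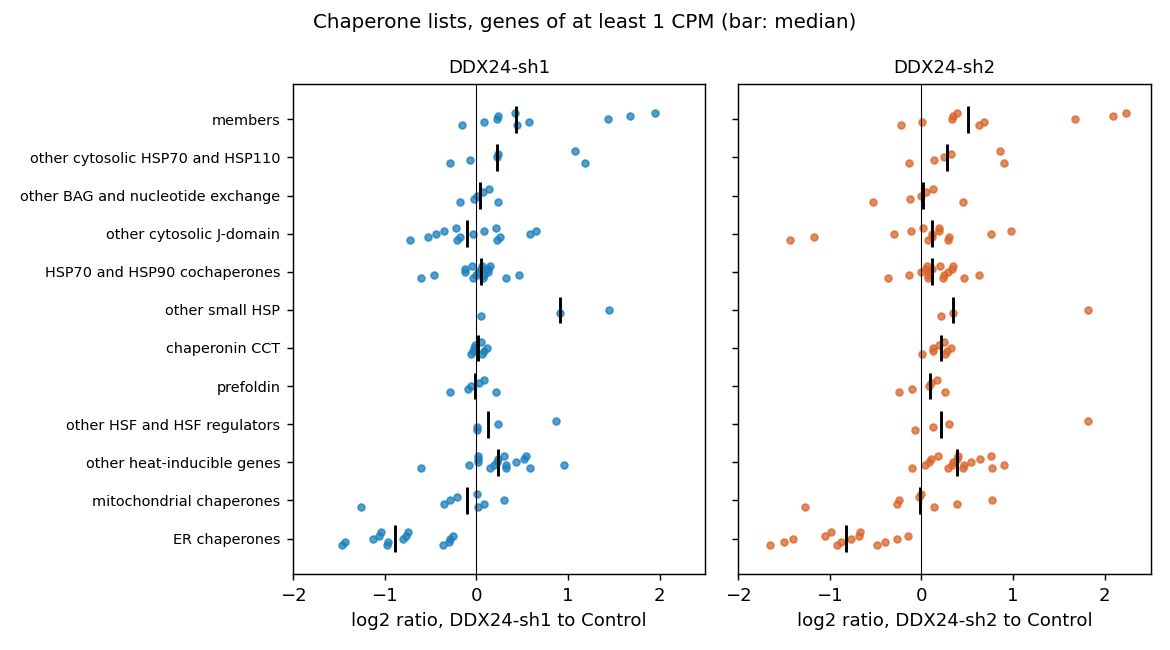
Log2 ratio to Control (x axis) of every gene that passed 1 CPM in each chaperone list, in DDX24-sh1 and DDX24-sh2, with the median marked. The listed endoplasmic reticulum genes all lie below 0 with medians of -0.88 and -0.82. Of the 10 members, chosen with these ratios known, 9 lie above 0 in each library, where 47.4% and 47.0% of all genes do. HSPB1 is among them in DDX24-sh2 at only 0.0008, with an interval that holds 0.

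The genes whose pattern was most like that of the inducible HSP70 sum were found by Euclidean distance in the 2 log2 ratios, over 11092 genes of at least 5 CPM outside the members and 3 libraries. NEFL, a neurofilament subunit, was nearest at 0.209, followed by NAP1L2, a nucleosome assembly protein (0.342), NOV, a secreted matricellular protein (0.415), CPA4, a carboxypeptidase (0.464), and ANPEP, aminopeptidase N (0.545).

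Few counts fell on annotated copies of the members. The pseudogenes with at least 10 counts in a library were HSP90AA2P (108, 159 and 203 counts), HSP90AB3P (45, 54 and 63) and HSPB1P1 (12, 18 and 9). Pseudogene counts came to at most 0.446% of those of the parent gene, that for HSP90AA1 in DDX24-sh1. Among genes on the opposite strand, WDR20 shares 197 bases with HSP90AA1 and DGAT1 shares 139 bases with HSF1.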

How the data were processed

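RNA-seq of A549 cells comprised 3 libraries, 1 per condition, grouped by their labels. The authors deposited, for the same 58735 genes, raw integer counts and FPKM values, and every gene's identifier, start and end match GENCODE 29 on GRCh38. The submitters' processing notes list Bowtie2 2.0.6, TopHat2 2.0.9, Cufflinks 2.1.1 and Cuffdiff 2.1.1 with no roles. The counter, strandedness and build are not given in the sources used here. The FPKM were compared with the counts over 11641 genes of at least 50 counts. Count and FPKM times length were proportional within 1% for 100% of genes in Control and in both shRNA libraries with their labels exchanged, and for 5.33% and 5.32% with labels as given. Counts were used as labelled.

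Counts were scaled by TMM (R 4.3.3, edgeR 4.0.16, prior count of 2), with no model and no p-value, since each condition has 1 library. Exact 95% conditional binomial (Clopper-Pearson) intervals were computed with scipy 1.17.1. Called genes had a mean of at least 1 CPM and a 2-fold ratio. Transcripts and promoter windows were aligned with Biopython 1.88, and promoter windows came from RefSeq tables (GRCh38.p14). Plots used matplotlib 3.10.9 under Python 3.11.15. The steps were tested on simulated data.

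The members and lists were chosen with earlier results of these data known. Named genes were the members, DDX24, in each other list the 2 genes of at least 5 CPM with the same sign in both libraries whose smaller ratio was largest, the 5 genes nearest to the HSPA1A and HSPA1B sum, and pseudogenes of at least 10 counts. Alternatives were DESeq2 1.42.0 size factors, total counts with or without mitochondrial genes, upper quartile scaling, a prior count of 0.5, the deposited FPKM as log2(FPKM + 0.1), no filter or 10 CPM, a 1.5-fold limit, protein-coding genes alone, added pseudogenes, and HSPA1A and HSPA1B summed or left out.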

Additional observations from a re-analysis of the deposited data

How the results depend on the processing

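No member's log2 ratio changed sign over the 5 scalings, which moved the median of all genes between -0.03 and 0.07. Beyond their counting intervals or 1.5 times, upper quartile scaling moved 14 of 30 values, total counts without mitochondrial genes 5 and total counts 2. Across these scalings, 2 intervals changed their place relative to 0. That of HSPB1 in DDX24-sh2 held 0 under TMM. It lay above 0 with total counts without mitochondrial genes and with upper quartile scaling (ratio of 0.07 in each). That of HSF1 in DDX24-sh1 lay below 0 under TMM and held 0 under upper quartile scaling (ratio of -0.07). DESeq2 size factors, a prior count of 0.5, added pseudogenes and protein-coding genes alone moved no value beyond its counting interval or a count by over 1.5 times. With the deposited FPKM labelled as given, the HSPA1A and HSPA1B sum was at 2.19 and 1.88 in the libraries so labelled DDX24-sh1 and DDX24-sh2, the members' median in the former was 0.52, and 249 genes were 2-fold higher in DDX24-sh2. With the shRNA labels of the FPKM exchanged, an alternative chosen after seeing the data, none of 30 values moved beyond those limits. The members' median in DDX24-sh1 was 0.52 under upper quartile scaling. Without HSPA1A and HSPA1B the medians were 0.33 and 0.36, and with the pair as a sum 0.39 in DDX24-sh2. A limit of 1.5-fold gave 1062 genes in DDX24-sh1, 1202 in DDX24-sh2 and 592 in both, with 5 members in DDX24-sh2 (HSP90AA1 and BAG3 added). Without a filter 1672 and 2172 genes were 2-fold higher, and at 10 CPM 69 and 77, in place of 325 and 404. No paired analysis was possible because each condition has 1 library, and no replicate could be left out. Depth limits HSPA6 (4, 11 and 24 counts) and other genes of few counts, and differences between cultures were not measured.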

Other observations

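Outside the members, 50 genes of at least 1 CPM held a 3-unit heat shock element match in a RefSeq promoter window. Their median log2 ratios to Control were 0.02 (DDX24-sh1) and 0.09 (DDX24-sh2), against -0.03 in each over the 10199 tested genes of the table that are not members. Of the 50, 0 were 2-fold higher in DDX24-sh1 and 2 (4%) in DDX24-sh2, beside 1.76% and 2.19% of the 10199. So few genes do not allow these shares to be compared. A log2 ratio above 0 was found for 52% and 60% of the 50, compared with 46.5% and 46.0% of the 10199. The 1376 genes with a 2-unit match had medians of -0.03 in each shRNA library. These values describe the letters of the windows, and with 1 library per condition no test was made.

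Low-count members of the heat shock families, chosen after their values were seen, included CRYAB, a small heat shock protein of lens and muscle, with 8 counts in Control, 27 in DDX24-sh1 and 35 in DDX24-sh2. HSF4, a relative of HSF1 that acts in the lens, had 15, 31 and 61 counts. HSPA1L, an HSP70 gene next to HSPA1A on chromosome 6, had 21, 54 and 42 counts. Among J-domain genes, DNAJB2 (1689, 1329 and 792 counts) and DNAJB5 (129, 83 and 49 counts) were at least 2-fold lower in DDX24-sh2 alone, with log2 ratios of -1.17 and -1.44 there. SLC5A3, on the heat-inducible list, had 561, 1172 and 785 counts and log2 ratios of 0.96 and 0.40.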
